A study of Mus musculus with 6 samples.

Results

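Genes of the extracellular matrix were examined in mouse bone marrow-derived macrophages (BMDM, called monocytes in the study's methods) that had been co-cultured with ID8 cells. They were Thbs1, Thbs2, Fn1, Vcan, Spp1, Sparc, Tnc, Postn, Fbn1 and Cd44, which are 10 of the 54532 genes of the deposited FPKM table (fragments per kilobase of gene length, scaled to the size of each library, a level that can be compared between genes). Each was matched by its symbol. They were selected by name with the cisplatin against PBS difference of these same libraries already known, so their levels and fold changes are given as a description and without a test. Of the 10, 7 reached 1 FPKM in at least 3 of the 6 libraries and entered the fit over 13441 genes, whereas Tnc, Thbs2 and Postn did not.

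The BMDM came from the marrow of C57BL/6 mice aged 6 to 8 weeks, and ID8 is a single mouse ovarian cancer cell line derived from the ovarian surface epithelium of the same strain. The ID8 partner of 3 libraries was exposed beforehand to 40 µM cisplatin, which forms DNA crosslinks, and that of the other 3 to PBS, a buffered salt solution. No genetic change was named for either group, and both shared the co-culture. The methods state that the monocytes were collected afterwards, but how they were parted from ID8 cells and how long the co-culture lasted are not given in the sources used here. The study's methods speak of biological replicates in general, but no label says whether the libraries came from separate cultures or mice, so the errors and p-values measure the spread between libraries. Between 15776238 and 16396353 reads were recovered per cisplatin library and between 15907567 and 17924686 per PBS library.

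Matricellular proteins are secreted into the matrix and act on cells through receptors rather than as a scaffold. Thrombospondin-1 and -2 (Thbs1, Thbs2), osteopontin (Spp1), SPARC (Sparc), tenascin-C (Tnc) and periostin (Postn) belong to this class. Fibronectin (Fn1), fibrillin-1 (Fbn1) and the proteoglycan versican (Vcan) build fibres, microfibrils and hyaluronan-rich matrix. CD44 (Cd44) is not secreted but is a transmembrane receptor that binds hyaluronan and osteopontin. Monocytes and macrophages are known to make thrombospondin-1, versican, osteopontin and fibronectin, and epithelial and mesenchymal cells make most of these proteins too.

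As deposited, the summed level of the 10 genes was nearly the same in both groups, but its make-up was not. The sum was 1495 ± 60.9 FPKM with PBS and 1495 ± 19.8 FPKM with cisplatin (SD, n = 3 each). That equality depended on the scaling: the cisplatin sum was 0.995 of the PBS sum after TPM rescaling and 0.501 of it after scaling by 4 Y-linked genes, both computed after seeing the data, whereas the shares below hold under either. With PBS, Spp1 took 70.2% ± 0.797 of it, Sparc 15.5% ± 0.717, Thbs1 9.13% ± 0.120 and Cd44 4.02% ± 0.0257 (SD, n = 3). With cisplatin, Thbs1 took 62.2% ± 1.04, Spp1 28.0% ± 0.969, Cd44 5.09% ± 0.206 and Sparc 3.32% ± 0.195 (SD, n = 3). The leading gene thus differed between the groups in every library.

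**Figure D1:**
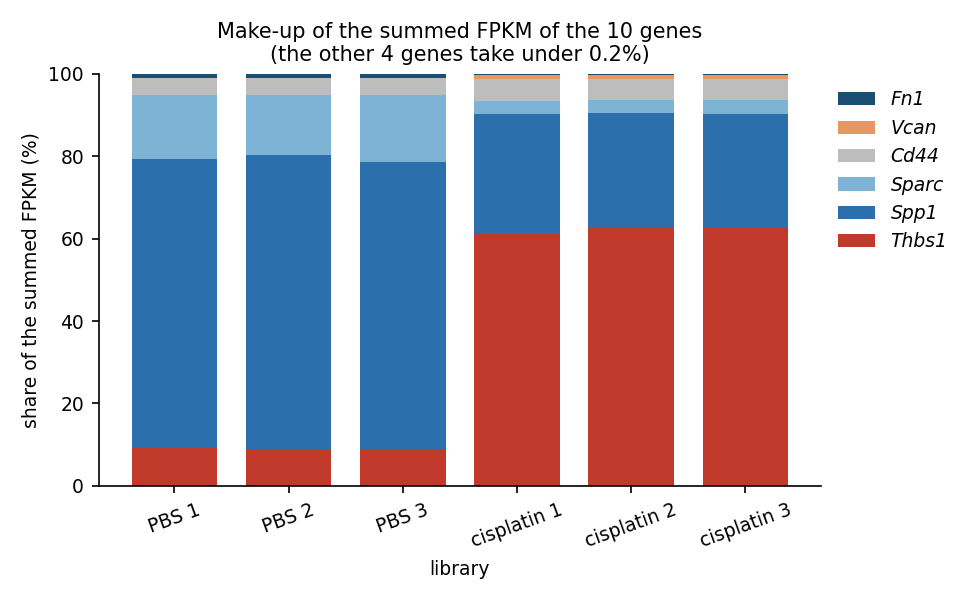
Share of each gene in the summed FPKM of the 10 genes (y axis, percent) in each of the 6 libraries (x axis). Thbs1 takes 9.13% on average in the PBS libraries and 62.2% in the cisplatin libraries, while Spp1 takes 70.2% and 28.0%.

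Thrombospondin-1, a large trimeric glycoprotein that binds CD36 and CD47 and can activate latent TGF-β, had the higher level with cisplatin. Thbs1 (ENSMUSG00000040152, chromosome 2, 118111876 to 118127133, GRCm38) stood at 134, 142 and 134 FPKM in the PBS libraries and at 926, 935 and 928 FPKM in the cisplatin libraries. The groups did not overlap, and the cisplatin mean was 6.81 times the PBS mean (6.54 to 6.99 over pairs of libraries). On the log2(FPKM + 1) scale the difference was 2.76 (SE 0.034), the tenth largest rise of the 13441 tested genes. By level Thbs1 ranked between 245 and 280 among all listed genes with PBS and between 17 and 21 with cisplatin, where it took 0.583% to 0.591% of all recovered reads.

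Versican, a chondroitin sulphate proteoglycan that binds hyaluronan and CD44, showed the largest fold of the 7 fitted genes in the deposited values. Vcan (ENSMUSG00000021614, chromosome 13, 89655312 to 89742509) was low with PBS, at 0.668, 0.897 and 0.771 FPKM, and reached 16.2, 14.9 and 14.8 FPKM with cisplatin. The ratio of the means was 19.6 (16.5 to 24.2 over pairs of libraries), and the difference on the log2(FPKM + 1) scale was 3.19 (SE 0.071), the fourth largest rise. After scaling by the Y-linked genes that difference was 2.49, smaller in size than the -3.18 of Sparc. Because every PBS value was below 1 FPKM, Vcan entered the fit only through its cisplatin libraries. Behind it lay 171 to 202 reads per PBS library and 3528 to 3978 reads per cisplatin library. The antisense gene Gm4117, which overlaps Vcan, had 80 reads in all with PBS and 55 with cisplatin, and the overlapping pseudogene Gm16318 had 0 and 11.

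Cd44 (ENSMUSG00000005087, chromosome 2, 102811141 to 102901665) moved little. Its values were 58.5, 62.5 and 59.5 FPKM with PBS and 80.8, 73.5 and 74.0 FPKM with cisplatin, so that the groups lay apart by a mean ratio of 1.27. The log2 difference was 0.33 (SE 0.049), and it turned to -0.65 when libraries were scaled by 4 Y-linked genes. In no other gene of the 7 did the direction depend on the scaling.

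Osteopontin, a secreted phosphoprotein that binds integrins and CD44, was the most abundant of the 10 transcripts with PBS and lower with cisplatin. Spp1 (ENSMUSG00000029304, chromosome 5, 104435118 to 104441050) stood at 1011, 1112 and 1027 FPKM with PBS and at 443, 408 and 408 FPKM with cisplatin. The PBS mean was 2.502 times the cisplatin mean (2.28 to 2.72 over pairs), with a log2 difference of -1.32 (SE 0.052). Even so, Spp1 ranked between 48 and 57 among all listed genes with cisplatin. Its neighbours of the same small family on chromosome 5, Ibsp, Mepe and Dspp, were listed at 0 in all 6 libraries, and Dmp1 had 10 reads in all with cisplatin and 0 with PBS. Gm42793, which overlaps Spp1 on the same strand, had 273 reads with PBS and 89 with cisplatin against 84277 and 34556 for Spp1.

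SPARC, a collagen-binding glycoprotein, differed by more. Sparc (ENSMUSG00000018593, chromosome 11, 55394500 to 55423183) stood at 226, 230 and 238 FPKM with PBS and at 47.3, 49.998 and 51.8 FPKM with cisplatin, a 4.65 times higher mean with PBS (log2 difference -2.20, SE 0.043). All 3 PBS libraries lay far above the cisplatin libraries. Sparc was also among the genes by which the study named tumour cells in its single-cell data.

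The fibre-forming genes were lower with cisplatin as well. Fn1 (ENSMUSG00000026193, chromosome 1, 71585520 to 71653200) went from 14.3, 15.3 and 15.2 FPKM to 5.08, 5.04 and 4.87 FPKM, with a 2.99 times higher mean with PBS (log2 difference -1.41, SE 0.047). Fbn1 (ENSMUSG00000027204, chromosome 2, 125300594 to 125507993) went from 1.10, 1.32 and 1.42 FPKM to 0.0970, 0.0603 and 0.0899 FPKM. The mean of Fbn1 was 15.5 times higher with PBS (11.4 to 23.6 over pairs), but its log2 difference was only -1.07 (SE 0.11) because the pseudocount of 1 exceeds its cisplatin level. With a pseudocount of 0.1 that difference was -2.92, and after quantile normalisation it was -0.98, short of the fold used for calls. Fbn1 entered the fit only through its PBS libraries and rested on 237 to 267 reads there and on 12 to 20 with cisplatin. The annotation lists 17 transcripts for Fn1, 9 for Vcan and 9 for Cd44, which a level per gene does not separate.

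Of the 3 genes left out of the fit, Tnc had 18 to 32 reads per PBS library and 1 to 5 per cisplatin library, at 0.233, 0.149 and 0.249 FPKM against 0.0303, 0.0392 and 0.00779 FPKM. Its groups did not overlap, although few reads lay behind them. Thbs2 had 0, 3 and 7 reads with PBS and 15, 11 and 7 with cisplatin, and its groups overlapped. Postn had 1 read in each of 2 cisplatin libraries and was listed at 0 in the other 4, below the floor of 3 reads, so no fold is given. Periostin and thrombospondin-2, typical of fibroblasts, were thus barely detected at this depth.

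**Figure D2:**
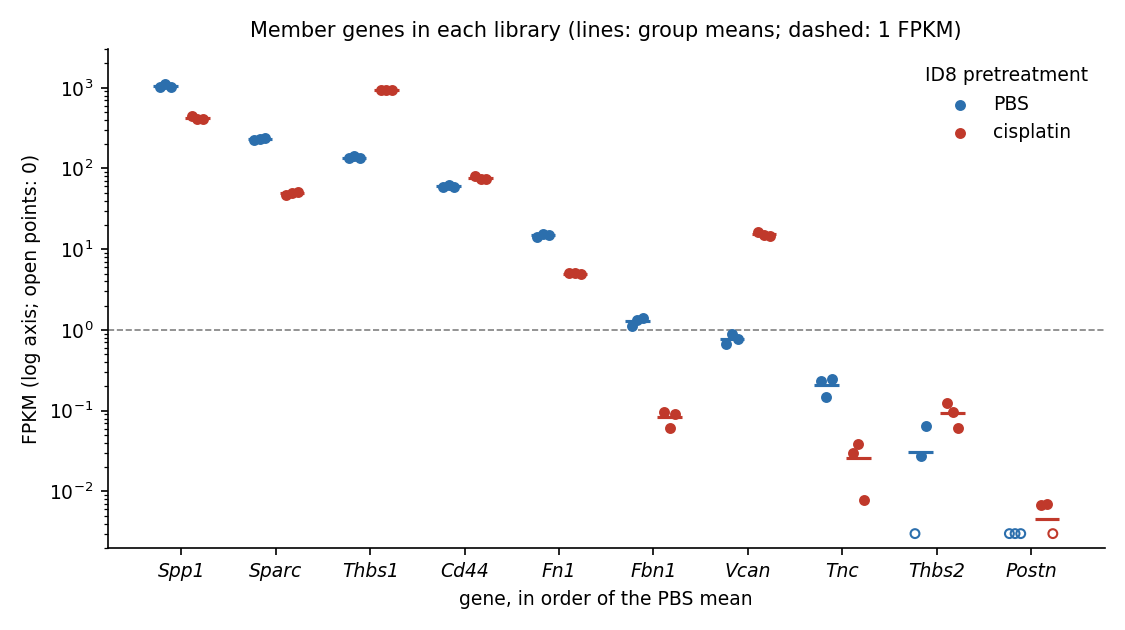
FPKM (y axis, log scale) of the 10 genes (x axis, in order of the PBS mean) in each PBS and cisplatin library, with group means as lines and values of 0 as open points. Thbs1 and Vcan lie higher and Spp1, Sparc, Fn1, Fbn1 and Tnc lower in all 3 cisplatin libraries, with Cd44 close in both groups.

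Of the 7 fitted genes, 2 met the call rule used for all genes on the higher side and 4 on the lower side (a change of 1 or more on the log2 scale at an adjusted p below 0.05), and Cd44 did not reach the fold. After quantile normalisation Fbn1 did not reach it either, which left 3 on the lower side. Among all tested genes 4.67% were called higher, 11.3% lower and 15.9% either way. The groups did not overlap in any of the 7 (3 higher, 4 lower), and they did not in 72.4% of all tested genes (35.2% higher, 37.2% lower). Nothing is read from these shares, since the genes were chosen on this contrast. Higher genes made up 29.3% of all calls, against 39.3% after quantile normalisation, 39.7% with limma voom and 1.61% after scaling by the Y-linked genes, under which the median gene stood at -0.83 in place of -0.0011. Under that scaling Vcan stood at 2.49 and Thbs1 at 1.77, and Spp1 at -2.32, Fn1 at -2.28, Sparc at -3.18 and Fbn1 at -1.41.

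Ratios between genes of the same library do not change when a library is multiplied by a factor, although quantile normalisation can change them. Spp1 was 7.69 ± 0.15 times Thbs1 with PBS and 0.451 ± 0.023 times with cisplatin (SD, n = 3 each). Fn1 was 19.4 ± 2.19 times Vcan with PBS and 0.328 ± 0.013 times with cisplatin (SD, n = 3 each). Spp1 and Sparc, both lower with cisplatin, did not keep their ratio, which was 4.55 ± 0.27 with PBS and 8.47 ± 0.79 with cisplatin (SD, n = 3 each). In the order of levels, neighbouring genes overlapped only for Thbs2 with Fbn1 in the cisplatin libraries and Thbs2 with Postn in the PBS libraries.

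The sequences upstream of 3 genes with large and opposite differences, Vcan (higher with cisplatin) and Spp1 and Sparc (lower), are shown to compare their promoters. They are the 250 bases before the RefSeq start site (GRCm38.p6, 5′ to 3′ on the gene's strand), with matches to the searched motifs in capitals. Vcan lies at chr13:89742513-89742762 on the minus strand, Spp1 at chr5:104434861-104435110 on the plus strand and Sparc at chr11:55420081-55420330 on the minus strand, the last 3103 bases inside the start given in the deposited table.
Vcan: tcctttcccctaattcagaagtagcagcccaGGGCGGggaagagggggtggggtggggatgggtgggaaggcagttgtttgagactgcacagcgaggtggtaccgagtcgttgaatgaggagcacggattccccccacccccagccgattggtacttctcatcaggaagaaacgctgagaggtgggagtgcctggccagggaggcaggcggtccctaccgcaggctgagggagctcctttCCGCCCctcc
Spp1: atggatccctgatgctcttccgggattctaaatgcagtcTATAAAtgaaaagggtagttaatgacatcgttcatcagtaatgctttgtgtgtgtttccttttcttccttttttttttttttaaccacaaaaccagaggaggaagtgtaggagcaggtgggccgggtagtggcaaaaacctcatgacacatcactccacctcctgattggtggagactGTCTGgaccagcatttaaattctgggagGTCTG
Sparc: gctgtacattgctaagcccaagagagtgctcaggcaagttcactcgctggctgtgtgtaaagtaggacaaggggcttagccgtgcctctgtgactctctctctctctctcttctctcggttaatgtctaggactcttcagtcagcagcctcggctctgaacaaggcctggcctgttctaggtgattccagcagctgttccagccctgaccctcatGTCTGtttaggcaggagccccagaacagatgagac
The motifs, read on both strands, were TGACTCA for AP-1, GGAATG for TEAD, CAGAC for SMAD, TATAAA for the TATA box and GGGCGG for SP1, and no matches overlapped. Vcan held 2 SP1 matches, beginning 219 and 10 bases before the start site. Spp1 held a TATAAA match 211 bases before it and SMAD matches 33 and 5 bases before it, and Sparc held a SMAD match 35 bases before it. Promoters of 8 of the 10 genes were in the table. TATAAA was found in 4 of these 8 and in 12.4% of all 32851 promoters of that length, SMAD in 3 of 8 and 42.2%, and SP1 in 3 of 8 and 32.7%. AP-1 was found in 0 of 8 and 4.46%, and TEAD in 0 of 8 and 12.6%. Of the 4 TATAAA matches, only that of Postn, 26 bases before its start site, lay within 100 bases of it.

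Other matrix genes from the same families (CCN proteins, fibulins, latent TGF-β binding proteins, hyalectans, galectins and others) were then counted. This list and those below were chosen with earlier results of these data known, which limits what their shares and p-values can show. Of 55 listed, 17 were tested, of which 12 fell, 1 rose and 4 were not called, where 11.3% of all tested genes fell and 4.67% rose. Their median log2 fold change was -1.51, against -0.0011 for all tested genes. The connective tissue growth factor gene Ctgf stood at 20.3 ± 1.28 FPKM with PBS and 0.469 ± 0.041 FPKM with cisplatin (n = 3 each, SD), a log2 difference of -3.86. Ctgf, Ltbp4 and Matn2, 3 of the 12, were below 1 FPKM in every cisplatin library and entered the fit only through PBS, so that they had to differ. Ltbp3, a latent TGF-β binding protein, fell from 89.6 ± 1.35 to 11.4 ± 0.470 FPKM (n = 3 each, SD), with a log2 fold change of -2.87 (SE 0.040, limma adjusted p = 4.49e-08), and Cyr61, another CCN gene, had a log2 fold change of -2.22 (SE 0.13, limma adjusted p = 9.02e-06). The gene called higher was Tgfbi, an integrin-binding protein made by macrophages among others, which rose from 13.7 ± 0.038 to 50.8 ± 0.415 FPKM (n = 3 each, SD), with a log2 fold change of 1.81 (SE 0.032, limma adjusted p = 6.68e-08), and it did not pass the fold after scaling by the Y-linked genes (0.86). Emilin1 stood just short of the fold (4.18 ± 0.449 against 9.07 ± 1.18 FPKM, SD, n = 3 each, log2 fold change 0.96, limma adjusted p = 0.000193), and Lgals3 lay at 0.76, both named after their values were seen. Among the 38 genes below the filter, Acan, Vtn, Spock3, Wisp2 and the 3 Spp1 relatives were listed at 0 throughout.

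Receptors of these proteins moved both ways. Of 28 listed, 24 were tested, of which 5 rose, 10 fell and 9 were not called, and the median of the 24 log2 values was -0.46. Among all tested genes 4.67% rose and 11.3% fell, with a median of -0.0011. The list also held the urokinase receptor Plaur, which was 1 of the 5 (1.18), and the collagen receptor Ddr2, which was not tested. Both were named after their values were seen. The αv integrin chain Itgav, part of receptors for fibronectin and osteopontin, went from 29.8, 31.0 and 30.2 FPKM with PBS to 8.74, 9.02 and 8.47 FPKM with cisplatin (log2 fold change -1.69, SE 0.041, limma adjusted p = 1.62e-07). Of its partner chains, Itgb3 (log2 fold change -1.71, SE 0.045, limma adjusted p = 2.19e-07) and Itgb5 (log2 fold change -1.87, SE 0.040, limma adjusted p = 1.08e-07) fell as well, and Itgb8 was called lower (-1.25), while Itgb1 was not called and Itgb6 did not enter the fit. The α4 integrin Itga4, which binds fibronectin and osteopontin, rose from 4.23, 4.51 and 3.79 to 13.1, 11.98 and 12.7 FPKM (log2 fold change 1.39, SE 0.067, limma adjusted p = 3.12e-06), although not past the fold after scaling by the Y-linked genes (0.52). Itgb1 (-0.24, adjusted p = 0.000975), the fibronectin receptor chain Itga5 (-0.69, adjusted p = 1.63e-05) and the tenascin-C receptor chain Itga9 (0.53) differed by less than the fold required. Past it lay Itgb1 (-1.23) and Itga5 (-1.65) after scaling by the Y-linked genes, and Itga9 with a pseudocount of 0.1 (1.00013) and limma voom (1.21). Itga9 and Itgb8 were below 1 FPKM in every library of 1 group and entered the fit only through the other, so that they had to differ. Itgam, the αM chain of a β2 integrin, rose as well (log2 fold change 1.42, limma adjusted p = 2.54e-07), again short of the fold under the Y-linked scaling (0.44). The β2 chain itself, Itgb2, was not called (0.75), and was named after its values were seen.

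Of the receptors of thrombospondin-1, Cd36, a scavenger receptor, rose from 7.52, 7.26 and 9.09 FPKM with PBS to 40.5, 36.9 and 39.0 FPKM with cisplatin (log2 fold change 2.16, SE 0.082, limma adjusted p = 1.04e-06). Cd47, another receptor, stood at 103, 106 and 108 FPKM with PBS and at 63.7, 58.8 and 58.4 FPKM with cisplatin (log2 fold change -0.80, SE 0.045, limma adjusted p = 6.28e-06), short of the fold but past it after scaling by the Y-linked genes (-1.79). Lrp1, which clears thrombospondins, fell by just the fold required (log2 fold change -1.002, SE 0.067, limma adjusted p = 1.55e-05), and lost its call with median-of-ratios scaling (-0.99), quantile normalisation (-0.94) and limma voom (-0.93) and without cisplatin replicate 1 (-0.94), PBS replicate 2 (-0.996) or PBS replicate 3 (-0.97). Stab1, a scavenger receptor that takes up SPARC, rose from 5.91 ± 0.18 to 28.4 ± 2.81 FPKM (n = 3 each, SD), with a log2 fold change of 2.09 (SE 0.074, limma adjusted p = 7.55e-07). The syndecan Sdc4, a co-receptor for fibronectin, had the largest fall of the list on the log2(FPKM + 1) scale, from 410, 396 and 426 FPKM to 66.5, 69.3 and 66.9 FPKM (log2 fold change -2.58, SE 0.038, limma adjusted p = 5.02e-08), a ratio of 6.07, and Sdc1 fell as well (log2 fold change -1.38, limma adjusted p = 1.35e-06). By ratio Itgb8, expressed at a low level and named after its values were seen, fell further, its mean being 12.9 times higher with PBS, from 1.70 ± 0.21 to 0.132 ± 0.022 FPKM (SD, n = 3 each). The Toll-like receptors that versican and tenascin-C can engage, Tlr2 (0.18, adjusted p = 0.0137) and Tlr4 (-0.022, adjusted p = 0.765), stood at 71.0 ± 3.17 against 62.5 ± 2.68 FPKM and 26.8 ± 1.03 against 27.3 ± 2.11 FPKM (cisplatin against PBS, SD, n = 3 each), with signs that depended on the processing.

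**Figure D3:**
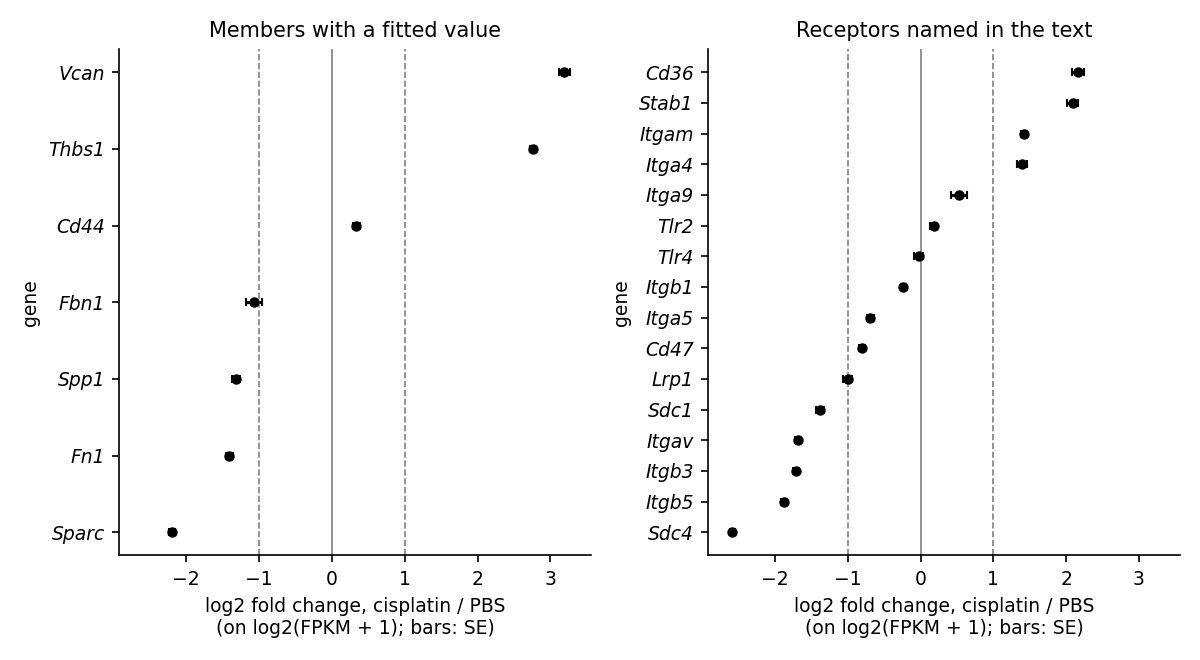
Log2 fold change of cisplatin against PBS on log2(FPKM + 1) (x axis) for the 7 fitted genes and for 16 named receptors (y axes), with standard errors as bars and the fold threshold dashed. Vcan and Thbs1 lie above 1 and Sparc, Fn1, Spp1 and Fbn1 below -1. Of the receptors, Cd36, Stab1, Itgam and Itga4 lie above 1. Itgav, Itgb3, Itgb5, Sdc4, Sdc1 and, by a small margin, Lrp1 (-1.002) lie below -1. Scaling by the Y-linked genes takes Cd44 and Tlr2 below 0, Itgam and Itga4 below 1, and Cd47, Itga5 and Itgb1 below -1.

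Enzymes and partners that assemble, crosslink or cleave these proteins were counted in the same way. Of 40 listed, 22 were tested, of which 2 rose, 3 fell and 17 were not called, so that 22.7% were called against 15.9% of all tested genes, and the median of the 22 log2 values was -0.12, which turned to 0.0066 after quantile normalisation. Tgm2, a transglutaminase that crosslinks fibronectin, fell from 131 ± 5.49 to 44.3 ± 4.41 FPKM (n = 3 each, SD), with a log2 fold change of -1.55 (SE 0.075, limma adjusted p = 3.17e-06). Mmp14, a membrane metalloproteinase, rose from 11.8 ± 0.435 to 36.9 ± 0.260 FPKM (n = 3 each, SD), with a log2 fold change of 1.57 (SE 0.040, limma adjusted p = 1.95e-07), short of the fold after scaling by the Y-linked genes (0.62). The other calls, named after their values were seen, were Mmp12 (1.42), the versican-cleaving Adamts9 (-2.12) and Cemip (-1.08), which takes part in hyaluronan breakdown. These 3 of the 5 calls were below 1 FPKM in every library of their lower group and entered the fit only through the other, so that they had to differ. Of the hyaluronan synthase genes Has1, Has2 and Has3, none reached 1 FPKM in 3 libraries.

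Markers of the cells that the RNA could come from differed between the groups as well. In bulk RNA, fewer cells of a type and less RNA per cell cannot be told apart. All 12 macrophage markers were detected, with a summed level of 1538 to 1559 FPKM with PBS and 4085 to 4234 FPKM with cisplatin, of which Lyz2 took 74.2% to 83.9%, and 7 rose (4.67% of all tested genes did), Mertk and Mrc1 having entered the fit only through cisplatin. Of 16 ID8 and mesothelial or epithelial markers, 11 were tested and 9 fell (11.3% of all tested genes did), with a median of -2.19. Their sum went from between 1158 and 1249 FPKM with PBS to between 204 and 221 FPKM with cisplatin, led by Krt19 (588 ± 28.8 against 51.1 ± 3.80 FPKM, SD, n = 3 each) and Krt8 (151 ± 8.93 against 24.2 ± 1.57 FPKM). None was at 0 throughout. Of the 2 not called, Cdh1 lay higher with cisplatin (3.24 ± 0.521 against 5.41 ± 0.529 FPKM, SD, n = 3 each, log2 fold change 0.60). Msln lay lower by less than the fold (99.9 ± 1.29 against 61.0 ± 2.10 FPKM, log2 fold change -0.70). Both were named after their values were seen. Of the tumour markers of the study other than Sparc, Igfbp6 fell (91.5 ± 10.1 against 19.2 ± 0.929 FPKM, SD, n = 3 each, log2 fold change -2.19), and Igfbp5 had 3 reads in all with cisplatin and 1 with PBS. Set against the summed ID8 markers, Sparc stood at 18.2% to 19.9% with PBS and at 22.97% to 23.5% with cisplatin, Fn1 at 1.16% to 1.32% and 2.20% to 2.49%, Spp1 at 81.7% to 96.0% and 185% to 217%, and Fbn1 at 0.0892% to 0.114% and 0.0277% to 0.0475%. Against the same ID8 sum Thbs1 stood at 10.7% to 12.2% with PBS and at 420% to 453% with cisplatin. Vcan stood at 0.0540% to 0.0775% and 6.69% to 7.92%, and Cd44 at 4.72% to 5.40% and 33.5% to 39.6%. Krt19 took 47.9% to 48.7% of that sum with PBS and 22.9% to 24.8% with cisplatin. Set against the sum without Krt19, an alternative added after seeing the data, Sparc stood lower with cisplatin (35.5% to 38.1% with PBS and 30.0% to 30.8% with cisplatin), whereas Fn1 (2.25% to 2.54% and 2.89% to 3.23%) and Spp1 (159% to 184% and 242% to 281%) still stood higher. Set against the summed macrophage markers, Thbs1 stood at 8.58% to 9.08% with PBS and at 22.1% to 22.7% with cisplatin, and Vcan at 0.0434% to 0.0575% and 0.351% to 0.396%. On that measure Spp1 stood at 65.7% to 71.3% with PBS and at 9.64% to 10.8% with cisplatin. Fn1 stood at 0.930% to 0.982% and 0.119% to 0.124%, and Sparc at 14.7% to 15.3% and 1.16% to 1.26%. Fbn1 stood at 0.0718% to 0.0910% and 0.00142% to 0.00237%, and Cd44 at 3.80% to 4.01% and 1.74% to 1.98%. Against the sum without Lyz2, also added after seeing the data, Thbs1 stood at 34.6% to 35.2% and 136% to 137%, and Vcan at 0.173% to 0.223% and 2.17% to 2.37%. Single macrophage markers differed in their rise, from Cd68 (156 against 179 FPKM, log2 fold change 0.20, not called) to Mrc1 (0.743 ± 0.180 against 11.3 ± 0.443 FPKM, SD, n = 3 each, log2 fold change 2.82), which was named after its values were seen.

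Other myeloid markers were called in both directions, and the counts that follow stand beside 4.67% higher and 11.3% lower among all tested genes. Of 8 monocyte markers 5 rose and 2 fell (median 1.11, sum 1114 to 1146 FPKM with PBS and 999.9 to 1047 FPKM with cisplatin), with Chil3 (221 ± 8.05 against 501 ± 26.0 FPKM) higher and Hp (703 ± 24.3 against 216 ± 10.1 FPKM) lower with cisplatin. Of 10 neutrophil markers, led by S100a9 and S100a8, 6 rose and 4 were not called (median 1.35, sum 4656 to 4805 and 8306 to 8582 FPKM). After scaling by the Y-linked genes the medians were 0.12 for monocyte, 0.37 for neutrophil and 0.51 for macrophage markers, the last against 1.25 without it. Of 10 platelet and megakaryocyte markers, 5 were tested and 3 rose, their sum going from between 29.5 and 35.2 FPKM to between 258 and 283 FPKM with Pf4 and Ppbp in the lead, while Gp1bb was listed at 0 and Gp9 stood at 0.360 ± 0.255 and 0.703 ± 0.190 FPKM. Gp1ba stood at 0.998 ± 0.246 and 1.08 ± 0.325 FPKM with overlapping groups, Clec1b at 0.151 ± 0.070 and 0.110 ± 0.034 FPKM, and Gp6 lower with cisplatin, at 0.202 ± 0.0091 and 0.0439 ± 0.015 FPKM (58 and 13 reads in all). These 3 were named after their values were seen. Of 10 fibroblast markers, 4 were tested, with Dcn lower (54.1 ± 2.62 against 16.2 ± 0.84 FPKM) and Acta2 higher (6.40 ± 0.17 against 23.9 ± 1.52 FPKM) with cisplatin, and a sum of 65.6 to 69.2 and 46.5 to 47.9 FPKM. Of 8 endothelial markers, 3 were tested and none was called (sum 14.1 to 14.8 and 19.9 to 21.2 FPKM), Pecam1 standing at 6.70 to 7.25 and at 11.3 to 11.9 FPKM and Vwf at 2.54 ± 0.15 and 5.38 ± 0.27 FPKM. The third tested marker, Tek, lay the other way (3.48 ± 0.26 against 1.38 ± 0.21 FPKM, log2 difference -0.92), as did Robo4 below the filter (0.248 ± 0.081 against 0.0938 ± 0.045 FPKM), both named after their values were seen. The 4 Y-linked genes, which female cells lack, had a median of 0.70 and summed to 19.5 to 22.7 FPKM with PBS and 41.6 to 42.8 FPKM with cisplatin. The part of any of these cells in the differences above was not tested.

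The tested genes nearest to the 10 on the chromosome, some of them far off, were mostly not called. Of the 20 nearest tested genes, 1 on each side of each, 2 were called higher (Rasgrp1 beside Thbs1 and Mreg beside Fn1), 3 lower (Pkd2, Dact2 beside Thbs2 and Trim32 beside Tnc) and 15 were not called, against 15.9% called among all tested genes. Xrcc4, 31518 bases from Vcan, had a log2 fold change of -0.24, and Atox1, 23458 bases from Sparc, of 0.19. Pkd2, 18400 bases from Spp1, fell (log2 fold change -1.54). Rasgrp1, Mreg, Dact2 and Trim32 lay 768875, 506242, 461196 and 1557971 bases away. Atic, the closest of the 20 at 5889 bases from Fn1, stood at 0.85, opposite in sign to Fn1, and was not called. Cox7c, the farthest, lay 3608408 bases from Vcan. These neighbours were named after their values were seen.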

How the data were processed

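RNA-seq libraries were made from poly-T selected RNA of BMDM, 3 co-cultured with cisplatin-pretreated and 3 with PBS-treated ID8 cells, grouped by the treatment label. The deposited values are FPKM per gene, computed by the authors. The submitters' processing notes name fastp, HISAT2 2.0.5, featureCounts 1.5.0-p3 and mm10, whereas the study's methods name LifeScope for aligning and counting. Whether strand was used is not stated. The coordinates of all 10 genes equalled those of GENCODE M21 (GRCm38).

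Multiplied by gene length, the FPKM of each library were whole multiples of 1 step (100% of values under 200 reads lay within 0.1 of a whole read), which gave the reads quoted. The scaling total behind the FPKM was 103.7% to 104.1% of the recovered reads in cisplatin libraries and 97.4% to 98.7% in PBS libraries.

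Genes with at least 1 FPKM in at least 3 libraries were tested on log2(FPKM + 1) with limma 3.58.1 in R 4.3.3 (lmFit, eBayes with a trend, group as the only term). A gene was called where its p, adjusted over all 13441 genes by Benjamini-Hochberg, was below 0.05 and its log2 difference was 1 or more in size, as in the study. The pseudocount understates changes of low genes. The procedure was tested on simulated data. An exact permutation test of 3 libraries against 3 cannot give a p below 0.1 and was not used.

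The 10 genes and all lists were chosen with earlier results of these data known. Named genes were the 10, 15 receptors listed by name, the 3 largest called changes in each direction of each list with a higher-group mean of at least 5 FPKM, and the 2 most abundant markers of each marker list. The Y-linked genes served only as a list and a scaling. Protein sequences were not analysed here, and promoters of Thbs1 and Fn1 were not analysed here. Same-numbered libraries did not deviate together (correlations of deviations from the group means -0.10, -0.086 and -0.024 for replicates 1, 2 and 3), so no block was used. The alternatives tried were leaving out each library in turn, a replicate block, other scalings (median-of-ratios, TPM, quantile, Y-linked genes), another pseudocount (0.1), testing all genes or those above 5 FPKM, limma voom on reads, an untrended eBayes, and the adjusted p alone. Ratios to marker sums without the leading marker were added after seeing the data.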

Additional observations from a re-analysis of the deposited data

How the results depend on the processing

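For the genes chosen on this contrast the values are a description. Over the alternatives, their log2 fold changes ranged from 1.77 to 2.86 (Thbs1), 2.49 to 4.39 (Vcan), -2.32 to -1.24 (Spp1), -3.18 to -2.13 (Sparc), -2.28 to -1.33 (Fn1) and -3.84 to -0.98 (Fbn1, short of the fold under quantile normalisation and not fitted with a filter at 5 FPKM). Same-numbered libraries share only a number. A replicate block gave 625 genes higher and 1515 lower, against 628 and 1514 without it, and the counts over the lists stayed equal.

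Over all tested genes, a pseudocount of 0.1 gave 973 higher, limma voom on the recovered reads 1227 higher, the adjusted p alone 4424 higher and 4721 lower, and scaling by the Y-linked genes 85 higher and 5181 lower. Against 1 other matrix gene called higher, the pseudocount of 0.1, TPM rescaling, quantile normalisation and limma voom each gave 2, the adjusted p alone 4 and the Y-linked scaling 0, and leaving out a library gave 1 to 2 (2 without cisplatin replicate 1 or PBS replicate 1). Against 5 receptor genes higher, the Y-linked scaling gave 2 and the adjusted p alone 10. Against 2 processing genes higher, the filter at 5 FPKM gave 1, the Y-linked scaling 0 and the adjusted p alone 7. Against 3 processing genes lower, the pseudocount of 0.1, TPM rescaling and limma voom each gave 6, the filter at 5 FPKM 1, the Y-linked scaling 11 and the adjusted p alone 10, and leaving out a library gave 3 to 5 (5 without cisplatin replicate 2). The sign of Tlr4 turned with quantile normalisation (0.028), limma voom (0.066) and without PBS replicate 2 (-0.062 to 0.038 when 1 library was left out), and that of Tlr2 with the Y-linked scaling (-0.80). The cause was not tested. Read depth limits Tnc, Thbs2 and Postn, which had at most 32 reads in any library.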
